A study of Saccharomyces cerevisiae with 24 samples.

Results

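The copy number profiles of a budding yeast strain that over-expresses limiting replication initiation factors, *sml1Δ SSDDCS*, were compared with those of its control, *sml1Δ*, at 30 and 35 min after release from G1. These are 4 of the 24 samples of the time course, 1 library per strain and time, and they were chosen because the bulk copy number of the genome was nearly the same in both strains. The bulk factors that flow cytometry gave were 1.79 in *sml1Δ SSDDCS* and 1.77 in *sml1Δ* at 30 min, and 1.875 in both at 35 min. At the neighbouring times they stood at 1.66 in *sml1Δ SSDDCS* and 1.60 in *sml1Δ* at 25 min, and at 1.93 in both at 40 min. If these factors hold, a difference between the strains at 30 or 35 min is a difference in where the replicated DNA lay. The equal amount of replicated DNA rests on the flow cytometry alone.

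Both strains are haploid W303 of mating type a, with the markers ade2-1, ura3-1, his3-11, 15 and trp1-1 beside leu2-3, 112, can1-100 and rad5-535. *sml1Δ SSDDCS* carries 3 integrated constructs, each with a divergent galactose promoter between a pair of genes. Sld7 and Cdc45 are at leu2, SLD3-A and Dbf4-A at his3, and Sld2 and Dpb11 at trp1, and SML1 is replaced by HphNT. In *sml1Δ*, SML1 is replaced by URA3 and there are no constructs. Both strains thus lack Sml1, the inhibitor of ribonucleotide reductase. Both cultures were arrested with alpha factor, were given galactose 30 min before release and stayed in galactose. The labels name 1 culture of each strain, so nothing below is a test, and each value describes these 4 libraries.

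Replication starts at origins, short sites that bind the origin recognition complex, and forks move outwards until they meet forks from a neighbouring origin in a termination zone. A locus goes through S-phase with a copy number that climbs from 1 to 2. The 6 over-expressed proteins are firing factors: with Cdc45 a part of the helicase itself, they turn a licensed origin into a pair of forks and are present in small numbers, so that origins fire in an order. In budding yeast the origins near centromeres are known to fire early and those near telomeres late. The labels cannot be checked from these values, because each ratio is taken against the G1 library of the same strain and the copy number of an inserted gene cancels.

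The core of a yeast origin is the ARS consensus sequence, the site that the origin recognition complex contacts. Among the 5 origins that were lowest and the 5 that were highest in *sml1Δ SSDDCS* against *sml1Δ*, 4 hold an exact match to the 11-base consensus, and these 4 are shown because they stand at both extremes of the comparison. ARS209 (chrII:255051-255101, minus strand) and ARS1014 (chrX:417363-417413, minus strand) were lower in *sml1Δ SSDDCS*. ARS317 (chrIII:292654-292704, minus strand) and ARS610 (chrVI:269750-269800, plus strand) were higher. Coordinates are on the R64 assembly (sacCer3), the sequences are from the RefSeq copy of it, and capitals mark the match.
ARS209: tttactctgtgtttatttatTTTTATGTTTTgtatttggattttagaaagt
ARS1014: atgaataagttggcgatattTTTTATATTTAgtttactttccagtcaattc
ARS317: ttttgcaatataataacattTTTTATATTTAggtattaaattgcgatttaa
ARS610: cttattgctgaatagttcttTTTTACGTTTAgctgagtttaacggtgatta
ARS1014, at the low extreme, and ARS317, at the high extreme, hold the same 11 letters. A match on either strand was present in 35.2% of the 352 annotated origin intervals, in 34.1% of 300-base windows centred on the origins and in 1.88% of all 40229 windows of that length. The match does not set the 2 directions apart, with 2 origins on each side.

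The first question was how evenly the replicated DNA was spread over the genome. The value used is the levelled ratio: the deposited ratio of reads to G1 in 1-kb bins, scaled so that both strains have the same mean at a time (1.78 copies at 30 min and 1.88 at 35 min) and, where a profile or a single place is described, averaged over 9 bins. The scaling changed the 30 min tables by -0.589% in *sml1Δ SSDDCS* and 0.596% in *sml1Δ*, and the 35 min tables by -0.0318% in *sml1Δ SSDDCS* and 0.0318% in *sml1Δ*. All differences are *sml1Δ SSDDCS* minus *sml1Δ*, and since they sum to about 0 over the genome, a gain in one place is always set against a loss in another. The noise of a single bin was 5.14% in *sml1Δ SSDDCS* and 4.02% in *sml1Δ* at 30 min, and 35 min gave 5.30% in *sml1Δ SSDDCS* and 3.85% in *sml1Δ*. The noise of a 9-bin difference was 0.038 copies at 30 min and 0.0412 at 35 min.

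Replicated DNA was spread more evenly in *sml1Δ SSDDCS*. After the noise was subtracted, the SD of the levelled ratio between bins was 0.108 copies in *sml1Δ SSDDCS* and 0.173 in *sml1Δ* at 30 min, and 0.0725 in *sml1Δ SSDDCS* and 0.112 in *sml1Δ* at 35 min. The ratio of these SDs was 0.624 at 30 min and 0.650 at 35 min. It was below 1 on all 16 chromosomes at both times. At 30 min it lay between 0.250 on chromosome VI and 0.797 on chromosome XII, and at 35 min between 0.272 on chromosome III and 0.843 on chromosome X.

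Both tails of the distribution were drawn in. At 30 min the 5th and 95th percentiles of the 11285 smoothed bins were 1.57 and 1.92 copies in *sml1Δ SSDDCS*, against 1.46 and 2.02 in *sml1Δ*, while the medians were 1.81 in *sml1Δ SSDDCS* against 1.80 in *sml1Δ*. Fewer than 1.5 copies were found in 292 bins of *sml1Δ SSDDCS* and in 792 bins of *sml1Δ*. The count above 2 copies depends on the scale of each table. At 30 min 0 bins of *sml1Δ SSDDCS* were above 2 copies, against 965 bins, or 8.55%, of *sml1Δ*. At 35 min 203 bins (1.80%) of *sml1Δ SSDDCS* and 1561 bins (13.8%) of *sml1Δ* were above 2 copies, while 6 bins of *sml1Δ SSDDCS* and 34 bins of *sml1Δ* were below 1.5.

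**Figure D1:**
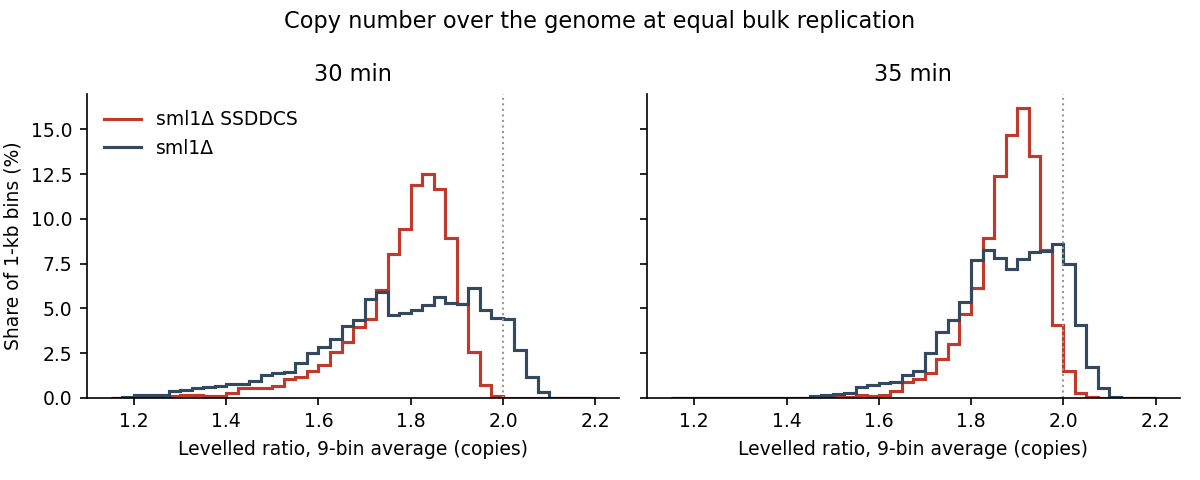
Share of 1-kb bins (%) by levelled ratio (copies, 9-bin average) at 30 min (left) and 35 min (right), for sml1Δ SSDDCS (red) and sml1Δ (dark blue), with 2 copies dotted. The sml1Δ SSDDCS bins form a narrow peak with 0 bins above 2 copies at 30 min, and the sml1Δ bins are spread broadly, with 965 above 2 copies. These counts depend on the scale of each table.

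No locus can exceed 2 copies in a single S-phase, so a value above 2 shows how far the scale of a table can be taken literally. The earliest regions of *sml1Δ* had a deposited mean ratio of 1.98 at 30 min and between 2.005 and 2.02 at every later time, whereas the same regions in *sml1Δ SSDDCS* had 1.88 at 30 min and reached 1.997 only at 60 min. The SD ratio moved little with the scale of the tables. With each profile scaled so that its own 99th percentile is 2 copies, a choice made after the data were seen, it was 0.660 at 30 min and 0.669 at 35 min. How much lower the early regions were depends on the scale, and values with this other scale are given for the main classes of bins and origins. Single origins, genes, runs and chromosome ends are described on the levelled scale and were not put on this other one.

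The SD ratio was lower over long distances than over short ones. In a moving average over 101 bins, which spans several origins, the SD between bins was 0.0557 copies in *sml1Δ SSDDCS* and 0.112 in *sml1Δ* at 30 min, a ratio of 0.499, and the ratio was 0.491 at 35 min. At the scale of single origins, taken as the 9-bin minus the 51-bin average and with the noise of the bins subtracted from the variance, the SD was 0.0486 in *sml1Δ SSDDCS* and 0.0650 in *sml1Δ* at 30 min, a ratio of 0.748, and 0.805 at 35 min. The order of these 2 scales was the same when each table was divided by the mean of the 45, 50 and 60 min tables of its strain, in which the G1 library cancels, with ratios at 30 min of 0.536 for the broad and 0.741 for the fine scale. At 45 min the earliest regions of *sml1Δ* still had deposited means of 1.98 in *sml1Δ SSDDCS* and 2.02 in *sml1Δ*. The latest had 1.93 in *sml1Δ SSDDCS* and 1.91 in *sml1Δ*. This division can therefore also take out a part of a difference, and how much was not tested. At 35 min the fine-scale SD was small in both strains, 0.0318 copies in *sml1Δ SSDDCS* and 0.0395 in *sml1Δ*.

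Across bins the 2 profiles still resembled each other, with Pearson's r of 0.703 and Spearman's rho of 0.665 at 30 min, and 0.646 and 0.606 at 35 min, over 11285 bins that overlap in their windows. The 30 and 35 min profiles of a strain gave r of 0.917 in *sml1Δ SSDDCS* and 0.976 in *sml1Δ*. These share 1 G1 library each. The differences at 30 min and at 35 min correlated with r = 0.899, and they too share both G1 libraries, so the 35 min table is no independent repeat of the 30 min one.

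Local peaks were more numerous in *sml1Δ SSDDCS*. At 30 min its profile had 295 peaks and 284 valleys, against 241 peaks and 244 valleys in *sml1Δ*, and the median spacing of peaks was 33 kb in *sml1Δ SSDDCS* and 42 kb in *sml1Δ*. Peak heights varied less, with a mean of 1.88 ± 0.0563 copies in *sml1Δ SSDDCS* and 1.92 ± 0.114 in *sml1Δ* (SD over peaks). Of the peaks at 30 min, 34.6% in *sml1Δ SSDDCS* and 43.2% in *sml1Δ* lay within 3 kb of an annotated origin. Of all bins, 8.19% lay at 0 to 2 kb from an annotated origin and a further 15.1% at 2 to 5 kb. A peak of the other strain lay within 5 kb of 46.1% of the *sml1Δ SSDDCS* peaks and of 56.4% of the *sml1Δ* peaks. The share that peaks of this spacing would reach by their number alone was not tested. The noise per bin was higher in *sml1Δ SSDDCS*, and its part in the number of peaks was not tested.

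The second question was which regions held more and which less. A bin was called where the 9-bin difference was at least 0.1 copies in size. At 30 min 2657 bins (23.5%) were called higher and 2652 (23.5%) lower in *sml1Δ SSDDCS*. At 35 min, with less left to replicate, 1472 bins (13%) were called higher and 1322 (11.7%) lower. At both times 1325 bins (11.7%) were called higher and 1126 bins (9.98%) lower. This balance follows from the equal means. With the 99th percentile of each profile at 2 copies, 3174 bins were called higher and 150 lower at both times, and with the G1 libraries cancelled 869 were higher and 591 lower.

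These bins formed 83 runs of at least 5 bins that were higher, with 1105 kb on 15 chromosomes, and 76 runs that were lower, with 865 kb on all 16. The bins called higher at both times were more frequent near chromosome ends than all bins, and absent near centromeres: 27.6% were within 50 kb of an end and 0% within 25 kb of a centromere. Of all bins, 10.4% and 6.64% lie there. Most of the bins called higher, 959 of 1325, were farther than 50 kb from an end. The bins called lower had the opposite pattern, with 5.24% within 50 kb of an end and 24.0% within 25 kb of a centromere. The median distance to the nearest annotated origin was 17 kb for bins called higher, 11 kb for bins called lower and 11 kb for all bins.

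Centromeres differed in one direction. At 30 min the bins that hold the 16 centromeres had 1.84 ± 0.0442 copies in *sml1Δ SSDDCS* and 2.002 ± 0.0260 in *sml1Δ* (SD, n = 16 centromeres), a difference of -0.167 ± 0.0470. *sml1Δ SSDDCS* ranged between 1.75 at CEN8 and 1.93 at CEN1, and *sml1Δ* between 1.94 at CEN6 and 2.04 at CEN10, so that the ranges did not overlap. At 35 min the means were 1.92 in *sml1Δ SSDDCS* and 2.01 in *sml1Δ*, a difference of -0.0890. All 16 centromeres were lower in *sml1Δ SSDDCS* at both times.

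Of the centromeres, 14 were called lower at 30 min and 3 at 35 min. Those 3 were called at both times, 18.75% against 9.98% of all bins. CEN3 had the largest difference, with 1.78 copies in *sml1Δ SSDDCS* and 2.02 in *sml1Δ* at 30 min, and 1.84 in *sml1Δ SSDDCS* and 2.08 in *sml1Δ* at 35 min. CEN3 lies in the bin of the origin ARS308. With the G1 libraries cancelled this bin differed by -0.0757 at 30 min and -0.0632 at 35 min. Whether the G1 libraries or the late tables of that division account for the smaller values was not tested. CEN1 was nearest to its control at 30 min, with 1.93 copies in *sml1Δ SSDDCS* and 2.01 in *sml1Δ*.

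After levelling, the lower level reached well beyond the centromeres. From 5 to 10 kb away the difference at 30 min was -0.144 copies, from 25 to 35 kb it was -0.138 and from 35 to 50 kb -0.111, each negative on all 16 chromosomes. From 50 to 75 kb it was -0.061 and 13 of 16 chromosomes were lower. With the G1 libraries cancelled the difference at the centromeres was -0.125 at 30 min and -0.0452 at 35 min. With the 99th percentile of each profile at 2 copies it was -0.0609 and -0.0328. On that scale 2 of the 16 centromeres were higher at 30 min and 4 at 35 min, and with the G1 libraries cancelled 3 were higher at 35 min. The steps of distance were taken on the levelled scale only. How far the lower level reaches on the other scale was not tested.

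Chromosome ends differed the other way. Within 50 kb of an end the mean at 30 min was 1.83 copies in *sml1Δ SSDDCS* and 1.75 in *sml1Δ*, a difference of 0.080 (14 of 16 chromosomes higher), and at 35 min 1.90 in *sml1Δ SSDDCS* against 1.84 in *sml1Δ*, a difference of 0.055 (13 of 16). It was 0.052 copies at 40 to 50 kb from the end, 0.0789 at 30 to 40 kb, 0.0939 at 20 to 30 kb and 0.0887 at 10 to 20 kb. The last 10 kb had 0.131 ± 0.142 (SD over 13 chromosomes, 10 of them higher), where only 74 bins had values. With the 99th percentile of each profile at 2 copies the difference within 50 kb was 0.179 at 30 min. From 50 kb inwards the levelled difference was small, with 0.011 at 50 to 75 kb and -0.011 at 75 to 100 kb.

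**Figure D2:**
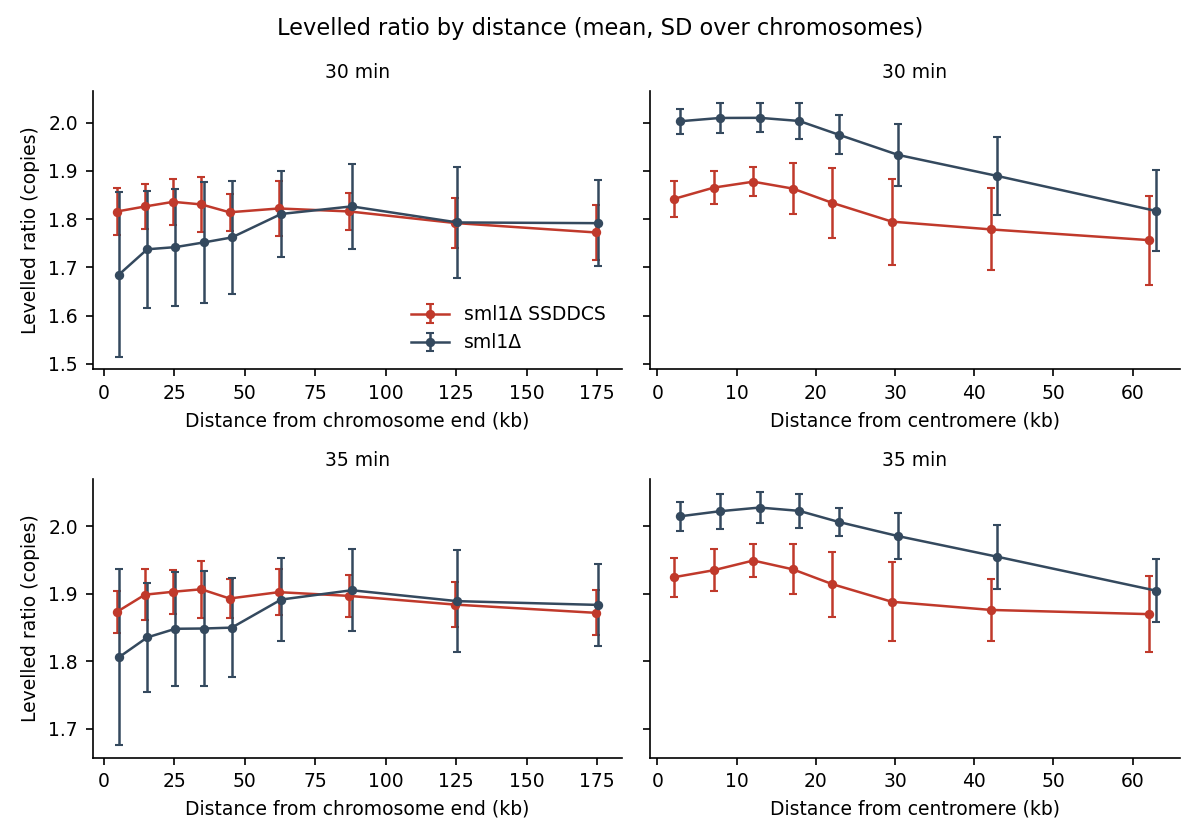
Mean levelled ratio (copies) by distance (kb) from the chromosome end (left) and from the centromere (right) at 30 min (top) and 35 min (bottom), for sml1Δ SSDDCS (red) and sml1Δ (dark blue), with bars for the SD over chromosomes. The sml1Δ SSDDCS line changes little over the first 100 kb from the end and falls farther inwards. On this levelled scale it lies below sml1Δ out to 75 kb from the centromere.

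The ends did not all move alike, and the ends of *sml1Δ SSDDCS* were more alike among themselves. Over the 32 ends the 50-kb means at 30 min lay between 1.74 and 1.92 copies in *sml1Δ SSDDCS* (SD 0.0404) and between 1.54 and 2.04 in *sml1Δ* (SD 0.135). At 30 min 25 ends were higher in *sml1Δ SSDDCS* and 7 lower, and at 35 min 24 were higher and 8 lower. The highest difference was at the right end of VII, with 1.82 copies in *sml1Δ SSDDCS* and 1.54 in *sml1Δ*, followed by the left end of VI with 1.84 in *sml1Δ SSDDCS* and 1.61 in *sml1Δ*. The lowest was at the left end of III, with 1.85 copies in *sml1Δ SSDDCS* and 1.99 in *sml1Δ*. The right ends of IX, with 1.85 in *sml1Δ SSDDCS* against 1.99 in *sml1Δ*, and of XV, with 1.92 in *sml1Δ SSDDCS* and 2.04 in *sml1Δ*, were also lower in *sml1Δ SSDDCS*. The 7 ends that were lower in *sml1Δ SSDDCS* at 30 min were the 7 with the highest values in *sml1Δ*. The difference contains the *sml1Δ* value, and the ends of *sml1Δ SSDDCS* varied little, so this largely follows from how the difference is taken.

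**Figure D3:**
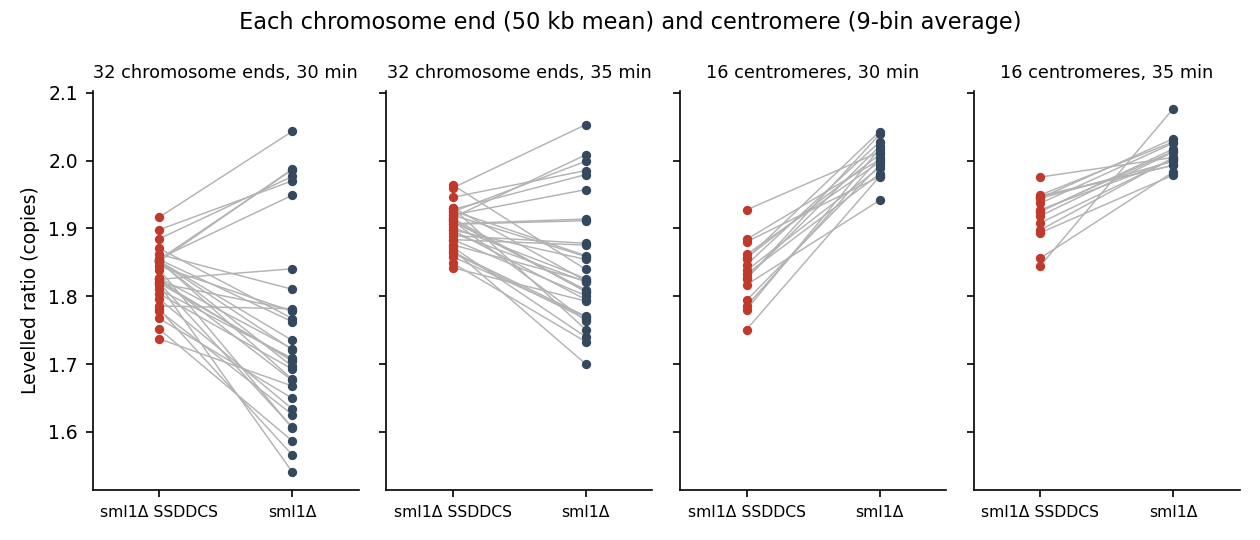
Levelled ratio (copies) of each of the 32 chromosome ends (mean of 50 kb) and of the 16 centromeres (9-bin average) at 30 and 35 min, with sml1Δ SSDDCS (red) left and sml1Δ (dark blue) right, and a line joining the same place. The ends fan out in sml1Δ, between 1.54 and 2.04 copies at 30 min, and all 16 centromere lines climb towards sml1Δ.

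Position on the chromosome stands partly for time, so bins were also ranked by the ratio of *sml1Δ* at 20 and 25 min, and divided into quintiles. Those S-phase libraries are outside the comparison, but their ratios are taken against the same G1 library of *sml1Δ*. At 30 min the earliest quintile had 1.87 copies in *sml1Δ SSDDCS* and 1.99 in *sml1Δ*, a difference of -0.119, and the latest had 1.64 in *sml1Δ SSDDCS* against 1.55 in *sml1Δ*, a difference of 0.0927. The steps between were -0.0540, 0.0190 and 0.0619. At 35 min the 5 differences were -0.0737, -0.0336, 0.0141, 0.0398 and 0.0538. The earliest quintile was lower on all 16 chromosomes at both times, and the latest was higher on all 16 at 30 min and on 15 at 35 min.

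The ranking itself comes from *sml1Δ* and so favours a loss in the early class and a gain in the late class. With no library shared by ranking and values, the latest quintile differed by 0.0512 at 30 min and 0.0229 at 35 min, and the earliest by -0.103 at 30 min and -0.0582 at 35 min. With both strains ranked together at 20 and 25 min, a choice made after the data were seen, the earliest quintile still differed by -0.0965 at 30 min (lower on all 16 chromosomes), and the latest by 0.0524 (higher on 12 of 16). With *sml1Δ* at 15 and 20 min as the ranking, the earliest quintile was again lower, by -0.100, but the latest quintile had 1.69 copies in *sml1Δ SSDDCS* and 1.72 in *sml1Δ*, a difference of -0.0316. The gain then sat in the quintiles 3 and 4, at 0.0697 and 0.0575. The 2 rankings shared 48.4% of the latest quintile. Ranked on *sml1Δ SSDDCS* at 20 and 25 min, also chosen after the data were seen and with the opposite bias, the earliest quintile differed by only -0.0186 at 30 min and -0.00716 at 35 min, and the latest by 0.0212 and 0.00626. The size of the difference in the earliest and latest classes, and the direction in the latest, thus depended on the ranking. With the 99th percentile of each profile at 2 copies the earliest quintile differed by only -0.0126 at 30 min and the latest by 0.180. How the difference divides between a loss in early and a gain in late regions therefore depends on the scale, while the span between them was narrower in *sml1Δ SSDDCS* on either.

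From 30 to 35 min the mean rose by 0.0946 copies in both strains after levelling. In the earliest quintile the gain was 0.066 copies in *sml1Δ SSDDCS* and 0.021 in *sml1Δ*, and in the latest it was 0.147 in *sml1Δ SSDDCS* and 0.186 in *sml1Δ*. The first of these differences, 0.0453 copies, depended on the scale: it was 0.0237 with the deposited ratio and -0.00499 with the 99th percentile of each profile at 2 copies. That of the latest quintile was negative on each of these scales. Of the DNA still unreplicated at 30 min, the latest quintile held 33.4% in *sml1Δ SSDDCS* and 41.9% in *sml1Δ*, with 2 copies as the end point. Of what was missing there, 40.7% in *sml1Δ SSDDCS* and 40.96% in *sml1Δ* was copied in these 5 min. The same quotient has no use in the earliest quintile, where it was 50.7% in *sml1Δ SSDDCS* and 187% in *sml1Δ*, whose mean passed 2 copies.

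Origins showed the same evening-out at the places where replication begins. Of 352 annotated origins, 319 had values, in 316 bins. Their levels at 30 min were 1.85 ± 0.0562 copies in *sml1Δ SSDDCS* and 1.87 ± 0.126 in *sml1Δ* (SD over origin bins), and at 35 min 1.92 ± 0.0478 in *sml1Δ SSDDCS* and 1.93 ± 0.0858 in *sml1Δ*. At 30 min 136 origin bins were higher and 180 lower in *sml1Δ SSDDCS*, and 110 were higher and 157 lower at both times. With the 99th percentile of each profile at 2 copies the majority turned, and 244 of the 316 were higher at 30 min and 218 at 35 min. At both times 20 origin bins were called higher (6.33%, against 11.7% of all bins) and 32 lower (10.1%, against 9.98%).

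By the *sml1Δ* ranking of the origins themselves, all 63 of the earliest quintile were lower in *sml1Δ SSDDCS* at 30 min, with a mean of 1.89 copies against 2.02 in *sml1Δ*. In the latest quintile 61 of 64 were higher, with 1.81 in *sml1Δ SSDDCS* against 1.69 in *sml1Δ*. Ranked on *sml1Δ SSDDCS* at 20 and 25 min instead, the earliest origins differed by -0.0233 at 30 min, and the latest changed direction, with -0.00765 at 30 min and -0.00716 at 35 min. With the *sml1Δ* ranking and the 99th percentile of each profile at 2 copies, the earliest origins differed by only -0.0246 at 30 min and the latest by 0.211. How many of the 63 earliest stay lower on that scale was not counted. The height of an origin above its surroundings 10 kb away was similar, 0.0270 copies in *sml1Δ SSDDCS* and 0.0309 in *sml1Δ* over 281 origin bins, and it was above 0 at 216 of them in *sml1Δ SSDDCS* and at 220 in *sml1Δ*. In the latest quintile it was 0.0230 in *sml1Δ SSDDCS* and 0.0190 in *sml1Δ*.

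**Figure D4:**
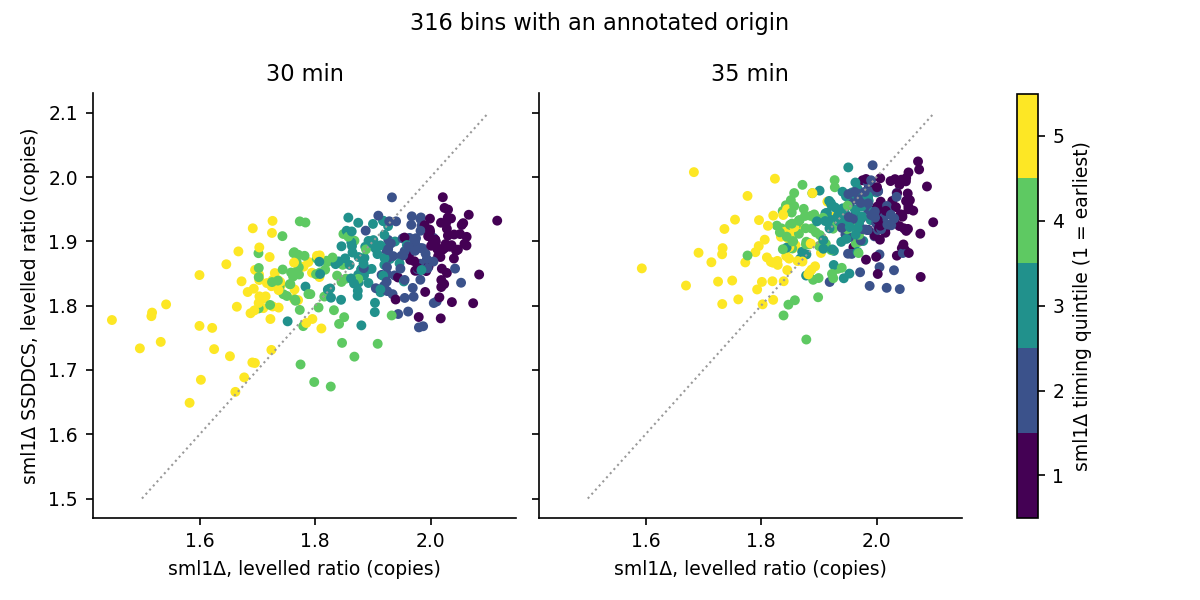
Levelled ratio (copies) of 316 bins with an annotated origin in sml1Δ SSDDCS (vertical axis) and in sml1Δ (horizontal axis) at 30 and 35 min, coloured by timing quintile in sml1Δ at 20 and 25 min, with the line of equality dotted. The cloud is flatter than the line: the earliest origins lie below it and most of the latest above it.

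Origins known as early were lower in *sml1Δ SSDDCS* after levelling. All 6 of a list of classical early origins were lower at both times, and 4 were called lower at both, against 9.98% of all bins. Every origin of the earliest quintile was lower at 30 min, so the list does not stand apart from other early origins. ARS305, ARS306 and ARS307, the well-studied early origins of chromosome III, had 1.896, 1.894 and 1.887 copies in *sml1Δ SSDDCS* at 30 min, against 2.06, 2.06 and 2.05 in *sml1Δ*. ARS607 had 1.89 copies in *sml1Δ SSDDCS* and 2.04 in *sml1Δ*, and ARS1, the first origin isolated, had 1.93 in *sml1Δ SSDDCS* and 2.05 in *sml1Δ*. ARS315 differed least, with 1.93 in *sml1Δ SSDDCS* against 1.98 in *sml1Δ*. These 6 were not put on the scale with the 99th percentile of each profile at 2 copies. There the earliest quintile of origins differed by only -0.0246 at 30 min, so the direction of single early origins can depend on the scale.

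Origins known as late or silent were mixed. Of a list of 11, 9 had values, 5 were higher at 30 min and 4 at 35 min, and 3 were called higher at both times, against 11.7% of all bins. ARS317, at the silencer of the silent mating locus HMR, had 1.78 copies in *sml1Δ SSDDCS* and 1.52 in *sml1Δ* at 30 min, and 1.88 in *sml1Δ SSDDCS* and 1.69 in *sml1Δ* at 35 min. Its neighbour ARS318 had 1.74 in *sml1Δ SSDDCS* against 1.53 in *sml1Δ* at 30 min. ARS609 near the right end of VI had 1.73 in *sml1Δ SSDDCS* and 1.62 in *sml1Δ* at 30 min, and ARS603 had 1.84 in *sml1Δ SSDDCS* against 1.70 in *sml1Δ*. The group at the other silent mating locus, HML, did not move this way: ARS302 had 1.78 copies in *sml1Δ SSDDCS* and 1.80 in *sml1Δ*, and ARS303 and ARS320, which share a bin, had 1.76 in *sml1Δ SSDDCS* and 1.81 in *sml1Δ*. ARS522, the late origin of chromosome V also known as ARS501, had 1.84 copies in *sml1Δ SSDDCS* against 1.85 in *sml1Δ* at 30 min, and 35 min gave 1.86 in *sml1Δ SSDDCS* against 1.93 in *sml1Δ*.

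The 5 origins that gained most were all in the latest quintile. ARS610, in the last kb of chromosome VI, had 1.78 copies in *sml1Δ SSDDCS* and 1.45 in *sml1Δ* at 30 min, and 1.86 in *sml1Δ SSDDCS* against 1.59 in *sml1Δ* at 35 min, from a window cut short by the chromosome end. ARS810 lies inside the CUP1 repeat on chromosome VIII, which encodes a copper-binding metallothionein. It had 1.79 copies in *sml1Δ SSDDCS* and 1.52 in *sml1Δ* at 30 min, and 2.01 in *sml1Δ SSDDCS* and 1.68 in *sml1Δ* at 35 min. Its window lacks the bins of the repeat that held no values. ARS1405, 28.5 kb from the left end of XIV, had 1.80 in *sml1Δ SSDDCS* against 1.54 in *sml1Δ* at 30 min, and ARS600.4, in AQY3 near the left end of VI, had 1.88 in *sml1Δ SSDDCS* and 1.67 in *sml1Δ*.

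The 5 that lost most were early in *sml1Δ*. ARS209 had 1.80 copies in *sml1Δ SSDDCS* and 2.07 in *sml1Δ* at 30 min, and 1.88 in *sml1Δ SSDDCS* against 2.03 in *sml1Δ* at 35 min. ARS308, which overlaps CEN3, had 1.78 in *sml1Δ SSDDCS* and 2.02 in *sml1Δ*, and then 1.84 in *sml1Δ SSDDCS* against 2.08 in *sml1Δ*. ARS731, in the pseudouridine synthase gene PUS6, had 1.81 in *sml1Δ SSDDCS* and 2.04 in *sml1Δ* at 30 min. ARS1014 had 1.85 in *sml1Δ SSDDCS* against 2.08 in *sml1Δ*. ARS1017, also on chromosome X, had 1.77 in *sml1Δ SSDDCS* and 1.99 in *sml1Δ*. With the G1 libraries cancelled all 10 of these origins kept their direction at both times, with differences at 30 min between -0.227 and 0.350. ARS308 moved most, to -0.0757.

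Bins far from any origin were slightly higher on average, but not on all chromosomes. At 20 to 30 kb from the nearest annotated origin the mean at 30 min was 1.69 copies in *sml1Δ SSDDCS* and 1.67 in *sml1Δ*, with 10 of 16 chromosomes higher. At 30 to 60 kb it was 1.64 in *sml1Δ SSDDCS* against 1.60 in *sml1Δ*, with 7 of 12 higher. At 0 to 2 kb it was 1.85 in *sml1Δ SSDDCS* and 1.87 in *sml1Δ*. In the 220 termination zones of *sml1Δ*, the local minima of its 20 and 25 min profile, the mean was 1.72 in *sml1Δ SSDDCS* against 1.67 in *sml1Δ*, a difference of 0.0566 (14 of 16 chromosomes higher), and at 35 min the difference was 0.0375. These zones were chosen as low points of *sml1Δ*.

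The longest stretch that was higher lay near the right end of chromosome VII, at VII 1019001 to 1067000. Its 48 kb held no annotated origin, the nearest being 17 kb away, and its mean was 1.72 copies in *sml1Δ SSDDCS* and 1.40 in *sml1Δ* at 30 min, and 1.84 in *sml1Δ SSDDCS* and 1.61 in *sml1Δ* at 35 min. It holds 21 annotated genes between MES1, the methionyl-tRNA synthetase, and BIO2, the biotin synthase. The largest single difference of the genome at 30 min, 0.443 copies, was here, in the bin at TAF1, a subunit of the general transcription factor TFIID, with 1.63 copies in *sml1Δ SSDDCS* and 1.19 in *sml1Δ*.

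The other runs with the largest gains lay on VI, XII, XVI and XIII. VI 15001 to 52000, with ARS600.4, ARS601 and ARS602 and with SEC53, the phosphomannomutase, had 1.84 copies in *sml1Δ SSDDCS* and 1.60 in *sml1Δ* at 30 min. XII 833001 to 867000 held no origin and had 1.60 in *sml1Δ SSDDCS* against 1.34 in *sml1Δ*. Its genes include ILV5, for branched-chain amino acid synthesis, and STE11, a kinase of the mating pathway. XVI 893001 to 925000, with SKI3, a subunit of the Ski complex of RNA turnover, had 1.71 in *sml1Δ SSDDCS* and 1.49 in *sml1Δ*. XIII 710001 to 744000 had 1.51 in *sml1Δ SSDDCS* against 1.33 in *sml1Δ* and holds MRE11, a nuclease subunit of double-strand break repair, and UBP8, a histone deubiquitinase.

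The run that lost most was on chromosome XII, at XII 166001 to 193000, 16 kb from CEN12 and 10 kb from the nearest annotated origin. Its mean was 1.40 copies in *sml1Δ SSDDCS* and 1.75 in *sml1Δ* at 30 min, and 1.64 in *sml1Δ SSDDCS* and 1.90 in *sml1Δ* at 35 min. It holds PPR1, a regulator of pyrimidine synthesis, with 1.38 copies in *sml1Δ SSDDCS* and 1.83 in *sml1Δ* at 30 min, and MEU1, of methionine salvage, with 1.31 in *sml1Δ SSDDCS* against 1.78 in *sml1Δ*. The lowest single difference of the genome, -0.478 copies, was in this run.

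The change at the left border of this run was abrupt. Whether the chromosome is rearranged here in *sml1Δ SSDDCS* was not tested. In *sml1Δ SSDDCS* the smoothed profile had 1.96 copies in the first and 1.37 in the last bin of XII 163001 to 174000, a change of 0.584 over 10 kb at 30 min and of 0.406 at 35 min. This was the steepest 10-kb change of either *sml1Δ SSDDCS* profile, where the 99th percentile was 0.200 at 30 min and 0.162 at 35 min. The steepest change in *sml1Δ* was 0.304 at 30 min, at the left end of chromosome I. With the G1 libraries cancelled the run still differed by -0.295 at 30 min and -0.200 at 35 min.

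**Figure D5:**
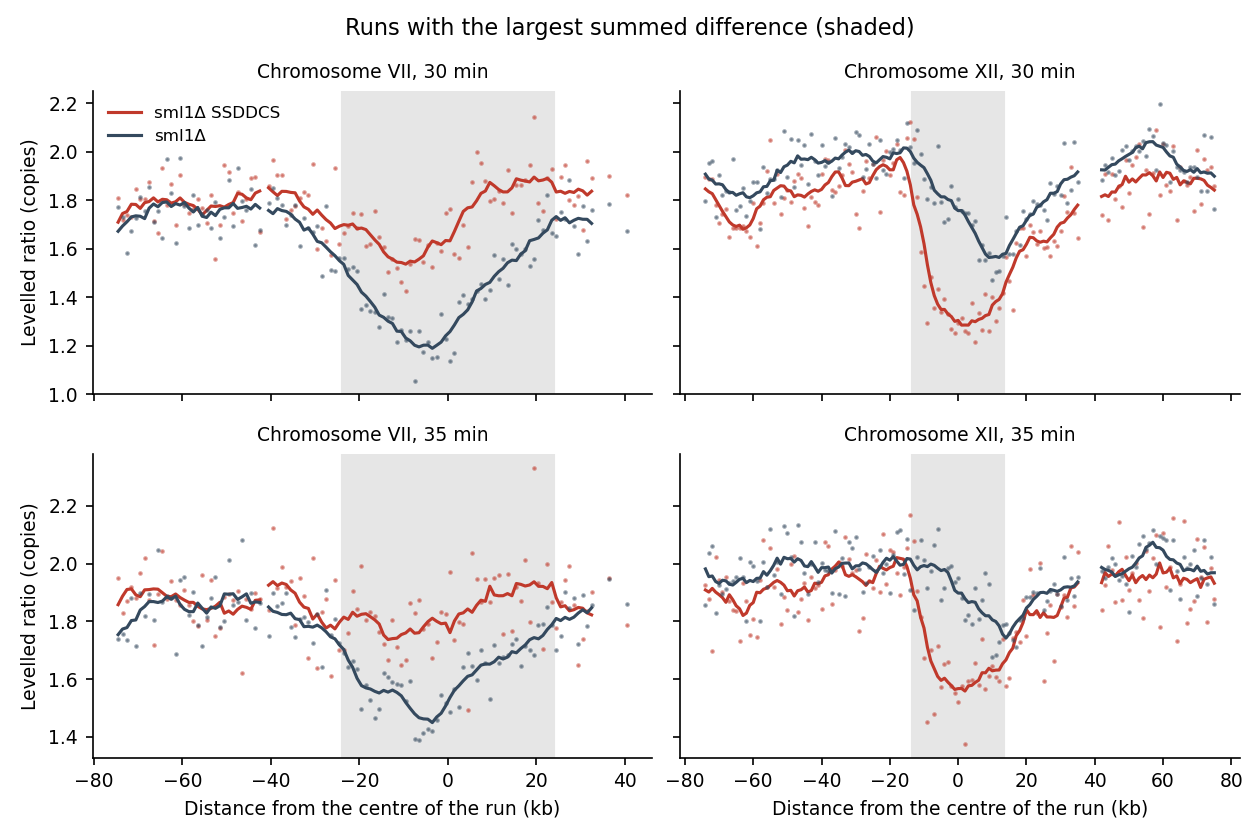
Levelled ratio (copies) against distance (kb) from the centre of the run that gained most (chromosome VII, left) and of the run that lost most (chromosome XII, right) at 30 min (top) and 35 min (bottom), with bins as points, 9-bin averages as lines and the run shaded, for sml1Δ SSDDCS (red) and sml1Δ (dark blue). On VII a deep valley of sml1Δ is shallow in sml1Δ SSDDCS, and on XII the sml1Δ SSDDCS line drops by 0.584 copies within 10 kb at 30 min.

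The next runs that were lower lay on II, X and III. II 266001 to 297000, 28 kb from CEN2, had 1.61 copies in *sml1Δ SSDDCS* and 1.88 in *sml1Δ* at 30 min. It holds the galactose genes GAL7, GAL10 and GAL1. The promoter between GAL10 and GAL1 is also the one in the 3 constructs, so its reads can come from the construct loci in *sml1Δ SSDDCS*. Over the 7 bins of the 3 genes, which hold more than this promoter, the difference was -0.350 at 30 min. Over the 24 other bins of the run it was -0.245. X 442001 to 473000, with ARS1015, ARS1016 and ARS1017, had 1.75 in *sml1Δ SSDDCS* and 1.97 in *sml1Δ*. It holds POL31, a subunit of DNA polymerase delta, and TDH2, a glycolytic dehydrogenase.

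X 546001 to 573000 had 1.68 copies in *sml1Δ SSDDCS* and 1.89 in *sml1Δ* at 30 min and holds TOR1, the growth-regulating kinase, and RFC2, a subunit of the clamp loader. III 57001 to 85000, around ARS306, had 1.87 in *sml1Δ SSDDCS* against 2.06 in *sml1Δ* and holds HIS4, of histidine synthesis. With the G1 libraries cancelled each of the 10 runs kept its direction at both times, with differences at 30 min between 0.153 and 0.246 for the 5 higher and between -0.295 and -0.151 for the 5 lower.

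Whole chromosomes differed less than the regions within them. At 30 min the means lay between 1.76 and 1.84 copies in *sml1Δ SSDDCS* and between 1.71 and 1.88 in *sml1Δ*, and 7 of 16 chromosomes were higher in *sml1Δ SSDDCS* at both times, against all 16 with the 99th percentile of each profile at 2 copies. Chromosome XIV gained most, with 1.81 copies in *sml1Δ SSDDCS* and 1.74 in *sml1Δ*, followed by IV with 1.76 in *sml1Δ SSDDCS* and 1.71 in *sml1Δ*. Chromosome V lost most, with 1.81 in *sml1Δ SSDDCS* against 1.87 in *sml1Δ*, followed by III with 1.83 in *sml1Δ SSDDCS* and 1.88 in *sml1Δ*. The highest mean in *sml1Δ*, on III, and the lowest, on IV, were thus both drawn towards the middle.

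The places left last were partly the same. Of the 1129 lowest bins of each strain at 30 min, 10% of the genome, 629 were shared, 55.7% of each set. Chromosome ends were rare in the set of *sml1Δ SSDDCS*: 0.266% of its bins were within 50 kb of an end. The share was 9.39% in the set of *sml1Δ*, near the 10.4% of all bins. The median distance to the nearest annotated origin was 29 kb in *sml1Δ SSDDCS* and 25 kb in *sml1Δ*, against 11 kb for all bins. The lowest bin at 30 min was the same in both strains, IV 967001 to 968000 at RMD5, a ubiquitin ligase subunit, 46 kb from an origin, with 1.22 copies in *sml1Δ SSDDCS* and 1.19 in *sml1Δ*. At 35 min it was still the lowest of *sml1Δ SSDDCS*, with 1.48 against 1.52 in *sml1Δ*. The lowest bin of *sml1Δ* at 35 min lay in RRP5, a ribosome assembly factor on XIII, with 1.64 copies in *sml1Δ SSDDCS* and 1.45 in *sml1Δ*.

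tRNA genes were lower as a group. Of 275 annotated tRNA genes 263 had values, and the median difference was -0.0822 at 30 min and -0.0472 at 35 min, against -0.0102 at 30 min over 5784 protein-coding genes. At both times 48 tRNA genes were called lower and 10 higher, beside 9.98% of all bins lower and 11.7% higher. The bins of long terminal repeats had 1.80 copies in *sml1Δ SSDDCS* and 1.86 in *sml1Δ* at 30 min, and those of retrotransposons 1.77 in *sml1Δ SSDDCS* against 1.83 in *sml1Δ*. Ribosomal protein genes, of which all 138 had values, had a median difference of -0.0100 at 30 min.

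The loci of the 6 over-expressed genes carry reads from the native gene and from the construct in *sml1Δ SSDDCS*, so their values mix 2 places. DBF4, the activator subunit of the Cdc7 kinase, had 1.85 copies in *sml1Δ SSDDCS* and 2.03 in *sml1Δ* at 30 min. CDC45, a part of the replicative helicase, had 1.69 in *sml1Δ SSDDCS* and 1.84 in *sml1Δ*, SLD7, a partner of Sld3, 1.91 in *sml1Δ SSDDCS* against 1.99 in *sml1Δ*, and SLD3 itself 1.78 in *sml1Δ SSDDCS* and 1.85 in *sml1Δ*. SLD2 had 1.77 in both strains. DPB11, which bridges Sld2 and Sld3, was the only one of the 6 that was higher, with 1.46 in *sml1Δ SSDDCS* against 1.35 in *sml1Δ*. Of the meiotic genes on the fixed list, IME2, a kinase, had 1.87 in *sml1Δ SSDDCS* and 1.92 in *sml1Δ* at 30 min and 1.98 in *sml1Δ SSDDCS* against 1.94 in *sml1Δ* at 35 min, and NDT80, a transcription factor, had 1.86 in *sml1Δ SSDDCS* and 1.76 in *sml1Δ* at 30 min and 1.892 in *sml1Δ SSDDCS* against 1.880 in *sml1Δ* at 35 min. THI12 had no values.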

How the data were processed

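The authors mapped reads with Bowtie2 2.2.6 to S288C (sacCer3). The submitters' processing notes also name SAMtools 1.7.2 and bedtools 2.26.0, and the methods name another SAMtools version and no bedtools. They took the ratio of uniquely mapped reads in 1-kb bins to those of the G1 sample of the same strain, and scaled it by a bulk factor from flow cytometry. The deposited tables hold this ratio and the factor, and no read counts, so depth is unknown. Bins with values in all 4 tables (11308) were levelled to a common mean per time and smoothed over 9 bins (at least 5 with values) within a chromosome. Noise is the robust SD of differences between neighbouring bins. Annotation was RefSeq's, on the same assembly in a later release. A replication origin was placed in the bin of its midpoint. With 1 library per strain and time there is no test. Scripts (Python 3, pandas, numpy) were tested on simulated data. Alternatives covered smoothing, levelling, the G1 denominator, GC content, thresholds and rankings. The classes, lists and naming rules were chosen with earlier results of these data known. Named were the 5 origins and the 5 runs with the largest mean or summed difference in each direction and the same sign at both times, with example genes of those runs, and fixed lists of origins and genes.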

Additional observations from a re-analysis of the deposited data

How the results depend on the processing

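The tables hold no read counts, so the limit set by depth is known only through the noise between bins, and a single library stood for a strain at a time, which left no replicate to leave out. No paired analysis was possible because no group held more than 1 sample. Under 16 alternatives 274 of 370 values stayed within the spread over chromosomes (counts within 1.5 times), 87 moved beyond it and 9 changed direction. The spread is a multiple of the standard error over chromosomes. The SD ratio stayed within its spread under each alternative run. It is taken from unsmoothed bins, so smoothing could not change it. Likewise, the counts of origin bins that were higher could not change with the ranking. These fixed values are among the 274. Smoothing over 5 or 15 bins, levelling to the median and GC correction moved no value beyond its spread. Neither did removal of the last 10 kb or of the rDNA, marker and over-expressed loci, or wider termination zones. The causes of the moves below were not tested.

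Division by the late tables, which cancels the G1 libraries, can also take out a part of a difference. With the G1 libraries cancelled, 957 bins were higher and 723 lower at 35 min, and 869 higher and 591 lower at both times. The centromere difference was -0.125 at 30 min and -0.0452 at 35 min, the earliest quintile -0.0992 and -0.0527, and the earliest origins -0.110 and -0.0611. With the deposited ratio unlevelled, the first 3 quintiles at 30 min differed by -0.0961, -0.0319 and 0.0403 and the earliest origins by -0.109, and the difference in gain was 0.0237 in the earliest and -0.0567 in the latest quintile. At a threshold of 0.05 copies 3218 bins were higher and 3423 lower at 35 min, 4343 lower at 30 min, and 2892 higher and 3046 lower at both times. At 0.15 copies the counts were 1372 higher and 1164 lower at 30 min, with 499 higher and 287 lower at 35 min, and 459 higher and 247 lower at both times.

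Ranked on *sml1Δ* at 15 and 20 min, quintiles 1, 2, 3 and 5 differed by -0.100, 0.00512, 0.0697 and -0.0316 at 30 min and by -0.0620, 0.00432, 0.0476 and -0.0254 at 35 min, so that the second and the latest quintile changed direction, and the latest origins differed by 0.0645 and 0.0399. With no library shared by ranking and values, the earliest quintile differed by -0.103 and -0.0582, the second at 30 min by -0.0409, and the latest by 0.0512 and 0.0229. The remaining alternatives were chosen after seeing the data, as were all those of the gain and of whole chromosomes. Ranked on both strains, quintiles 1, 2 and 5 differed by -0.0965, -0.0216 and 0.0524 at 30 min and by -0.0593, -0.00978 and 0.0265 at 35 min, and the earliest and latest origins by -0.106 and 0.0690, and by -0.0647 and 0.0412. Ranked on *sml1Δ SSDDCS* at 20 and 25 min, quintiles 1, 2, 4 and 5 differed by -0.0186, -0.00954, 0.00652 and 0.0212 at 30 min and by -0.00716, -0.00452, 0.00424 and 0.00626 at 35 min. The earliest origins differed by -0.0233 and -0.0123, and the latest changed direction, with -0.00765 and -0.00716.

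With the 99th percentile of each profile at 2 copies, 5323 bins were higher and 356 lower at 30 min, with 3245 higher and 240 lower at 35 min, and 3174 higher and 150 lower at both times. All 16 chromosomes were higher at both times. The quintiles differed by -0.0126, 0.0487, 0.118, 0.157 and 0.180 at 30 min and by -0.0176, 0.0205, 0.0661, 0.0902 and 0.102 at 35 min, so that the second changed direction. The difference in gain was -0.00499 in the earliest quintile, a change of direction, and -0.0789 in the latest. Of the origin bins 244 were higher at 30 min and 218 at 35 min, the earliest origins differed by -0.0246 and -0.0281, and the latest by 0.211 and 0.123. The centromere difference was -0.0609 and -0.0328, the difference within 50 kb of an end 0.179 and 0.106, and that of the termination zones 0.15 and 0.0874.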
